A study of Mus musculus with 4 samples.

Results

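Mitochondrial ribosomal protein genes were examined in plasmacytoid dendritic cells (pDCs) sorted from the spleens of wild-type (WT) and Flt3 knockout (Flt3 KO) mice. They were taken as every gene whose symbol starts with Mrpl or Mrps followed by a digit and that was read by a probe set, a group of probes for one transcript, annotated to that symbol alone. This gave 77 genes, read by 85 probe sets, among 19938 genes in all. Each genotype was represented by 2 biological replicates of mature pDCs taken at steady state, each hybridised to its own whole-transcript array. The labels give neither the Flt3 allele, the strain, the age nor the number of animals behind a replicate. The p-values therefore rest on the spread between these samples, with the error of each gene drawn in part from other genes. In bulk RNA, fewer cells of a type and less RNA per cell cannot be told apart.

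Mitochondria keep a small genome of their own, whose messages encode core subunits of the respiratory chain and of ATP synthase. These messages are translated by a dedicated ribosome inside the organelle. Its ribosomal RNAs come from the mitochondrial genome, whereas all of its proteins are encoded in the nucleus, made in the cytosol and imported. Many of the proteins descend from bacterial ribosomal proteins, and others were added in the mitochondrial lineage. Flt3 is a receptor tyrosine kinase through which its ligand supports the formation of dendritic cells. The comparison asks how expression of these genes differed with and without Flt3.

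No mitochondrial ribosomal protein gene passed the test, but most of them had slightly lower signals in Flt3 KO pDCs. Of the 77 genes, 61 had a lower and 16 a higher mean in Flt3 KO, whereas 49.6% of all genes had a higher mean. The median log2 difference, Flt3 KO minus WT, was −0.12, a signal 7.80% lower, while the median of all genes was −0.0010. Single genes ranged from −0.33 (Mrpl47) to 0.17 (Mrps27). The lowest adjusted p of a member was 0.11 (limma, Benjamini-Hochberg over all 19938 genes), so 0 were higher and 0 were lower past the threshold of 0.05. Among all genes 1.08% were higher and 1.31% lower by that rule.

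Part of this lean was shared by other genes of similar signal. All genes were put in 10 equal classes of mean signal. The median difference was −0.002 in the dimmest class, above 0 in classes 2 to 6 with up to 0.053, and below 0 in the 4 brightest, down to −0.057 in the eighth. The middle range of the members' mean log2 intensity, from 7.28 to 8.37, held 2813 genes. Their median difference was −0.058, while the 39 members in that range had −0.11. Of the 77 members, 52 lay below the median of all genes in their own class, and over the members the median distance from it was −0.073. Differences between arrays in scaling were not separated from differences in expression here. Quantile normalization, which gives every array the same distribution, left a median of −0.076 over the members. The split of lower and higher members, 61 and 16 on the deposited scale, was 67 and 10 with each array centred on its median, 55 and 22 under quantile normalization and 51 and 26 under cyclic loess, which was added after seeing the data.

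**Figure D1:**
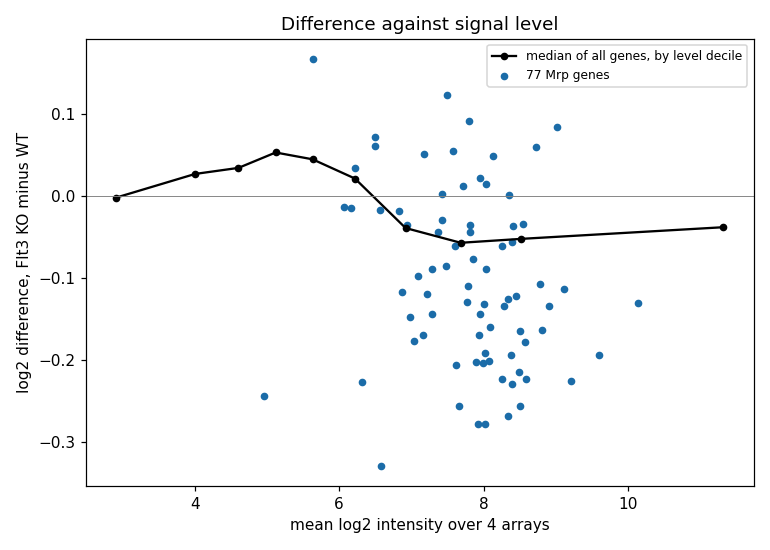
The plot shows the log2 difference, Flt3 KO minus WT, on the y axis against mean log2 intensity over the 4 arrays on the x axis. Blue points are the 77 mitochondrial ribosomal protein genes, and the black line joins the medians of all genes in 10 classes of signal; 52 points lie below the median of their class.

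At an unadjusted p under 0.05 in limma, 22 members (28.6%) were lower and 0 were higher, against 10.1% lower and 6.95% higher among all genes. In the middle signal range, 10 of the 39 members (25.6%) were lower by the same rule, against 19.2% of all genes there. The 22 members comprised 15 of the large and 7 of the small subunit. Their differences lay between −0.33 and −0.13, and their adjusted p-values in limma between 0.11 and 0.29. Both Flt3 KO values lay below both WT values in 46 members (59.7%), where the share was 25.3% of all genes. In the middle range it was 64.1% of the 39 members and 41.5% of all genes. The opposite order was found in 4 members, Mrps2, Mrps16, Mrpl9 and Mrps27, against 21.9% of all genes. For a single gene the smallest two-sided p of an exact permutation test of 2 arrays against 2 is 0.3333.

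Both Flt3 KO arrays showed the lean. Measured from the WT mean of each gene, 63 of 77 members were lower in Flt3 KO replicate 1 (median −0.13) and 59 in Flt3 KO replicate 2 (median −0.10). The medians of the WT arrays were 0.012 and −0.012. Flt3 KO replicate 1 was the lower of the Flt3 KO arrays for 60 of the 77 members, while among all genes it was lower for 51.0%. The median gap between replicates of a member was 0.061 in WT and 0.084 in Flt3 KO, beside a median difference of −0.12. Measured from the median of their own class of signal, the members' median was −0.073, smaller in size than the gap in Flt3 KO.

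**Figure D2:**
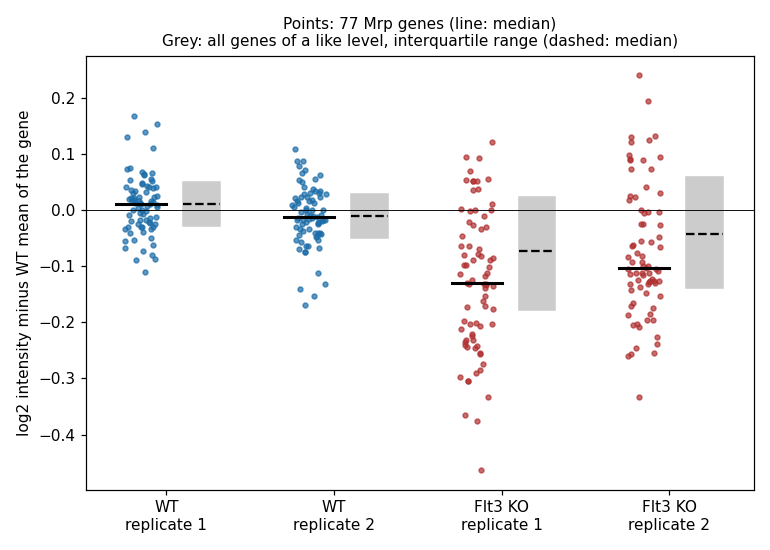
The y axis gives log2 intensity minus the WT mean of each gene, and the x axis the 4 arrays. Points are the 77 mitochondrial ribosomal protein genes with their median as a solid line, and grey boxes are the interquartile range of the 2813 genes of the middle signal range with a dashed median; the members' medians are −0.13 and −0.10 in the Flt3 KO arrays.

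The large subunit carries the site of peptide bond formation and the tunnel through which the new chain leaves. Its 50 members include Mrps18a and Mrps30, which are named for the small subunit but sit in the large one in the mammalian structure. The median difference was −0.11, with 39 members lower and 11 higher in mean. Mrpl47, a counterpart of a bacterial protein at the tunnel exit, read 6.79 and 6.69 (log2 intensity) in WT, against 6.28 and 6.55 in Flt3 KO. Both Flt3 KO values were below both WT values, but the Flt3 KO replicates stood apart from each other. Its difference was −0.33 (SE 0.11, limma adjusted p = 0.18). A second, dimmer probe set for Mrpl47 differed by 0.065, in the other direction.

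Several members of the large subunit had closer replicates than Mrpl47. Mrpl48, a mitochondria-specific protein of the central protuberance, the knob that faces the small subunit, read 8.14 and 8.17 in WT, against 7.93 and 7.82 in Flt3 KO. The groups did not overlap, and the difference of −0.28 (SE 0.070) had the lowest adjusted p of any member in limma, 0.11. Mrpl40, also of the central protuberance, read 8.54 and 8.40 in WT against 8.18 and 8.23 in Flt3 KO, a difference of −0.27 (SE 0.072). Mrpl51, a mitochondria-specific protein, read 9.36 and 9.28 in WT, against 9.08 and 9.11 in Flt3 KO. It differed by −0.23 (SE 0.059), again with no overlap; its dimmer probe set gave −0.10. Of the 7 members assigned to the central protuberance, 6 were lower in mean, and the exception was Mrpl38 with 0.012. Its value was −0.025 with arrays centred, 0.056 under quantile normalization and 0.066 under cyclic loess. Under cyclic loess Mrpl55 (0.021) and Mrpl58 (0.020) were also above 0. The median of the group was −0.089, and −0.032 under cyclic loess.

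Around the exit tunnel, 6 of 7 members were lower in mean and the median was −0.13. Mrpl45, which anchors the ribosome at the inner membrane, read 6.41 and 6.46 in WT, against 6.15 and 6.26 in Flt3 KO, without overlap (difference −0.23, SE 0.086). Mrpl22 and Mrpl24, both counterparts of bacterial tunnel proteins, differed by −0.24 and −0.13. Mrpl22 had a mean log2 intensity of 4.96, below the median of 5.89 over all genes, in a range where background weighs more. Mrpl44, a mitochondria-specific protein with a nuclease-like fold, was the member of this group that was not lower. It read 6.35 and 6.57 in WT, against 6.52 and 6.55 in Flt3 KO, and the groups overlapped. Its difference of 0.072 turned to −0.038 without WT replicate 1.

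The stalk that binds translation factors is built on Mrpl10, Mrpl11 and Mrpl12. Mrpl11 read 8.14 and 8.10 in WT, against 7.89 and 7.97 in Flt3 KO, a difference of −0.19 (SE 0.067), and the groups did not overlap. Mrpl10 differed by −0.13 (SE 0.065), also without overlap. Mrpl12, the flexible protein at the stalk's tip, read 7.42 and 7.44 in WT, against 7.40 and 7.46 in Flt3 KO. The groups overlapped. Its difference of 0.0024 changed to −0.034 when arrays were centred on their medians and to 0.053 under cyclic loess, so its direction is not settled.

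Near the catalytic centre the values were mixed. Of 5 members assigned there, 3 were lower and 2 higher in mean, with a median of −0.045 that turned to 0.011 under cyclic loess. Mrpl3, whose human counterpart is a mitochondrial disease gene, read 8.61 and 8.55 in WT, against 8.35 and 8.48 in Flt3 KO. The groups did not overlap, and the difference was −0.16 (SE 0.070). Mrpl2 and Mrpl4, homologs of bacterial proteins, had differences of 0.060 and 0.0012, both with overlapping replicates. That of Mrpl4 was −0.035 with arrays centred and 0.058 under cyclic loess.

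Other members of the large subunit differed in both directions. Mrpl19, a homolog of a bacterial protein, read 7.77 and 7.80 in WT, against 7.41 and 7.65 in Flt3 KO, a difference of −0.26 (SE 0.092). Mrps18a read 8.20 and 7.94 in WT, against 7.76 and 7.81 in Flt3 KO, with a wide gap between the WT replicates (difference −0.28, SE 0.095). On the other side, Mrpl20, Mrpl9 and Mrpl35 had differences of 0.12 (SE 0.090), 0.091 (SE 0.069) and 0.061 (SE 0.084). Mrps30 differed by 0.051 (SE 0.075). The Flt3 KO values of Mrpl9 both exceeded the WT values, whereas the groups overlapped for Mrpl20, Mrpl35 and Mrps30.

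The small subunit binds the message and holds the decoding centre. Its 26 members had a median difference of −0.14, with 21 lower and 5 higher in mean. Mrps12, the decoding-centre protein that governs accuracy, read 8.71 and 8.62 in WT, against 8.57 and 8.41 in Flt3 KO. All of its Flt3 KO values were below WT, and its difference was −0.18 (SE 0.075, limma adjusted p = 0.29). Mrps34, a mitochondria-specific protein, had the most negative difference of this subunit, −0.26 (SE 0.087), from 8.69 and 8.58 in WT to 8.27 and 8.49 in Flt3 KO. Mrps33, a small protein of the subunit's head, read 8.72 and 8.67 in WT, against 8.45 and 8.49 in Flt3 KO. Replicates of Mrps33 lay close, the groups did not overlap, and the difference was −0.22 (SE 0.061), with −0.17 at its second probe set.

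In 5 members of the small subunit the mean was higher in Flt3 KO. Mrps27, a mitochondria-specific protein that binds RNA, had the largest positive difference of all 77, 0.17 (SE 0.099, limma adjusted p = 0.44). It read 5.51 and 5.61 in WT, against 5.65 and 5.80 in Flt3 KO, a dim signal whose groups were separated by less than the replicates of either group. Mrps16, a homolog of a bacterial protein and a mitochondrial disease gene in humans, read 8.996 and 8.962 in WT, against 9.05 and 9.08 in Flt3 KO (difference 0.084, SE 0.056). Mrps2, Mrps24 and Mrps7 had differences of 0.055, 0.049 and 0.014, and the groups overlapped for Mrps24 and Mrps7. The value of Mrps7 was −0.022 with arrays centred and 0.071 under cyclic loess.

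Mrps18a, Mrps18b and Mrps18c are paralogs related to one bacterial ribosomal protein. Mrps18c is counted here as its counterpart, and Mrps18a and Mrps18b are counted among the mitochondria-specific members. Their differences were −0.28, −0.077 and −0.19. Mrps18c read 9.66 and 9.72 in WT, against 9.49 and 9.51 in Flt3 KO, with tight replicates and no overlap (SE 0.054, limma adjusted p = 0.13). Mrps18b read 8.004 and 7.780 in WT, against 7.85 and 7.78 in Flt3 KO. Its groups overlapped, and without WT replicate 1 its difference turned to 0.035. The differences among the paralogs were not tested.

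The share of mitochondria-specific members that were lower in mean was 26 of 31, with a median of −0.13, and that of members with a bacterial counterpart 34 of 45, with a median of −0.098. The assignment of members to subunit, origin and site follows general knowledge of the mammalian mitochondrial ribosome, and no difference between these classes was tested. Mrps36 belongs to neither, since its product is now known as a component of the 2-oxoglutarate dehydrogenase complex. It read 5.98 and 6.16 in WT, against 6.05 and 6.07 in Flt3 KO, overlapping values with a difference of −0.013.

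**Figure D3:**
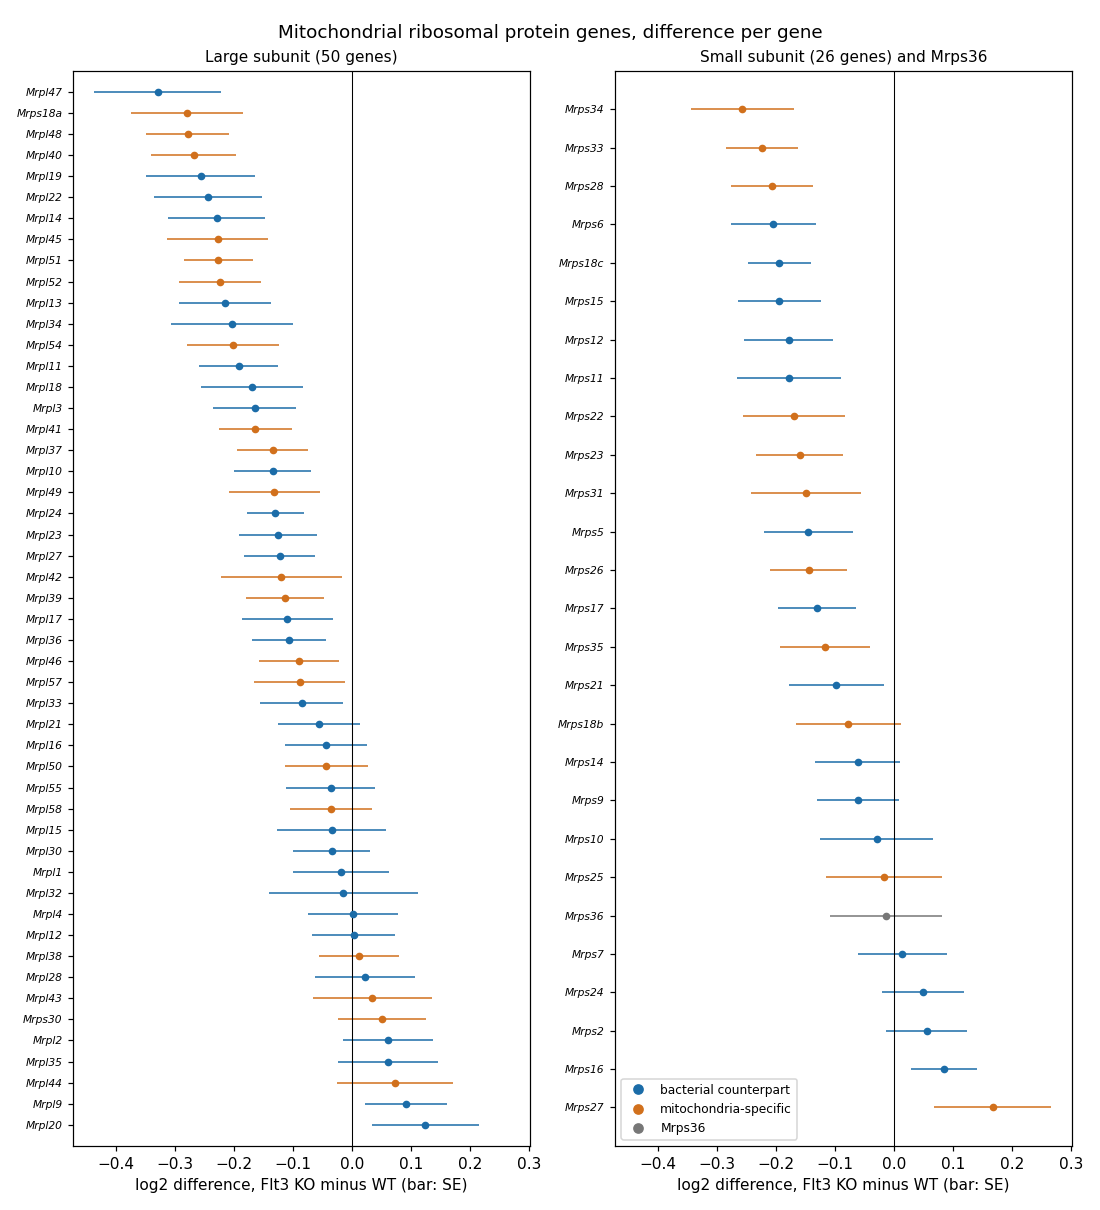
Each point is the log2 difference, Flt3 KO minus WT, of 1 gene on the x axis, with its standard error as a bar; genes of the large subunit are on the left, those of the small subunit and Mrps36 on the right, and colour gives their origin. Points lie left of 0 for 39 of 50 large-subunit and 21 of 26 small-subunit genes.

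In all, 8 members had 2 probe sets, and the brighter was used. Both had the same sign for Mrpl23 (−0.13 and −0.11), Mrpl27 (−0.12 and −0.26), Mrpl41 (−0.16 and −0.18), Mrpl51, Mrps5 (−0.14 and −0.091) and Mrps33. They disagreed for Mrpl47 and for Mrps36, whose dimmer probe set gave 0.078. A probe set shared by Mrpl53 and its neighbour Ccdc142 was left out by the rule, since its signal cannot be assigned to either; it differed by −0.20.

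Mitochondrial ribosomal protein genes are known for short promoters with sites for NRF1, for ETS factors such as GABP, and for YY1, regulators that serve many nuclear genes of mitochondria. The 250 bases before each RefSeq start (GRCm38.p6) were searched on both strands for GCGCATGC (NRF1), CCGGAAGT (ETS) and AAGATGGC (YY1). Of the 77 members 68 had such a sequence, in 74 windows. The NRF1 motif was in 8 of the 74 windows (10.8%) against 3.1% of 19115 windows of all genes measured here. The ETS motif was in 10 (13.5%) against 4.0%, and the YY1 motif in 4 (5.4%) against 1.6%. In these members no match of one motif overlapped a match of another, though NRF1 matches on opposite strands can overlap. Stretches around 1 match are shown for members described in this section, including Mrpl48, with the lowest p, and Mrps27, with the most positive difference. Each is written 5′ to 3′ on the gene's strand, with the motif or its reverse complement in capitals.
Mrpl48 (chr7:100583148-100583175, minus strand), ETS: ggttttaaaaACTTCCGGaaccaagatg
Mrpl51 (chr6:125192100-125192127, plus strand), ETS: aggggctaaaCCGGAAGTatttgactgg
Mrpl3 (chr9:105053239-105053266, plus strand), ETS: gagaaacggaCCGGAAGTggcccggctg
Mrps18c (chr5:100798592-100798619, plus strand), ETS: gggtcacgtgACTTCCGGcccgggaagc
Mrps27 (chr13:99344727-99344754, plus strand), ETS: tggtaggaccACTTCCGGcggaggcggg
Mrps12 (chr7:28742003-28742030, minus strand), YY1: catggacgcaGCCATCTTggagtggaaa
Mrpl22 (chr11:58171621-58171648, plus strand), NRF1: gcctcggactGCGCATGCgtatagtcag
Mrpl10 (chr11:97041438-97041465, plus strand), NRF1: ccagctccacGCATGCGCatagcggccc
Mrpl9 (chr3:94443298-94443325, plus strand), NRF1: aggcgcagctGCGCATGCgcggggtcct
Mrps18b (chr17:35916646-35916673, minus strand), NRF1: acggcccgacGCATGCGCactgggagca
Most members with the ETS or the NRF1 motif were lower in mean, among them Mrpl48 (−0.28, ETS) and Mrpl22 (−0.24, NRF1). The exceptions were Mrpl43 (0.03) and Mrps27 (0.17) with the ETS motif and Mrpl9 (0.091) with the NRF1 motif. The 10 members with the ETS motif had a median difference of −0.17 and the 58 without it −0.093. With the NRF1 motif the median of 8 members was −0.098, and without it that of 60 was −0.12. Over all genes with a sequence the median was −0.048 with the ETS motif and likewise with the NRF1 motif, and −0.001 without the ETS and −0.002 without the NRF1 motif. With the YY1 motif the median of 4 members was −0.14, and without it that of 64 was −0.11. Over all genes it was −0.031 with and −0.003 without the YY1 motif. The motif hits are matches of letters and not measured binding sites, and none of these differences was tested. Genes with and without a motif were not matched for signal.

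The other machinery of mitochondrial translation leaned the same way in its medians, which stayed below 0 under each scaling tried. Of 69 measured genes in 4 lists 0 passed in limma, where 1.31% of all genes were lower and 1.08% higher. By the unadjusted rule (p under 0.05) 15 of the 69 (21.7%) were lower and 1 (1.4%) higher, against 10.1% and 6.95% of all genes. Part of this lean, too, was shared by genes of similar signal. The median log2 intensity of the 69 was 6.9, and their median difference was −0.10. In the class of signal from 6.54 to 7.29 the median difference of all genes was −0.039. Among mitoribosomal proteins with other symbols, Chchd1 differed by −0.28 (SE 0.078), Ptcd3 by −0.18, Dap3 by −0.12 and Gadd45gip1 by −0.019. Of 16 translation factors, 12 were lower in mean and the median was −0.11. Mtif2, the initiation factor, read 7.16 and 7.19 in WT, against 6.83 and 6.90 in Flt3 KO, a difference of −0.31 (SE 0.075, limma adjusted p = 0.099). Slirp, which stabilises mitochondrial messages, differed by −0.29 (SE 0.071). Both showed no overlap between groups. Among 19 mitochondrial tRNA synthetases 14 were lower in mean (median −0.080), with Rars2 and Sars2 both at −0.27. Of 30 genes of ribosome assembly and ribosomal RNA modification 25 were lower (median −0.082), with the methyltransferase genes Mettl15 at −0.36 and Mrm3 at 0.27.

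Of 12 genes that maintain and transcribe the mitochondrial genome 1 passed, where 1.08% of all genes were higher and 1.31% lower. Polg2, the accessory subunit of the mitochondrial DNA polymerase, rose by 0.37 (SE 0.072, limma adjusted p = 0.049), from 7.69 and 7.66 in WT to 8.11 and 7.99 in Flt3 KO. This call was at the edge of the threshold and was lost with the replicate number as a block (adjusted p = 0.068), with arrays centred, without the intensity trend, with all probe sets tested and with any 1 array left out. The other 11 of 12 genes did not pass, and the list's median was −0.13. By the unadjusted rule 1 (8.3%) was higher and 2 (16.7%) lower, against 6.95% and 10.1% of all genes. Those lower were Tk2 (−0.34, SE 0.068) and Twnk (−0.36, SE 0.10). Of 11 transcriptional regulators of mitochondrial genes 0 passed in limma. By the unadjusted rule 2 (18.2%) were higher and 1 (9.1%) lower, against 6.95% and 10.1% of all genes. Myc, a transcription factor that drives ribosome production, had a difference of 0.43 (SE 0.11, adjusted p = 0.10), from 6.06 and 5.86 in WT to 6.31 and 6.48 in Flt3 KO, and the coactivator gene Ppargc1b 0.25 (SE 0.10). Gabpa, the regulator gene that was lower by the unadjusted rule, differed by −0.19 (SE 0.075). In mean 6 of the 11 regulators were lower and 5 higher. Their median was −0.021, or 0.024 under quantile normalization. The 15 listed genes of the mitochondrial genome were not analysed here.

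Genes of the cytosolic ribosome, which translates messages from the nucleus, were listed for comparison. Of 55 measured genes 0 passed in limma, and the median was −0.011, or 0.016 under quantile normalization. By the unadjusted rule 2 (3.6%) were higher and 3 (5.5%) lower, against 6.95% and 10.1% of all genes. The lowest p-values were those of Rps14 (−0.11, SE 0.033) and Rps15a (0.26, SE 0.089). Their probe sets had a median log2 intensity of 11.87. Differences between the lists were not tested.

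**Figure D4:**
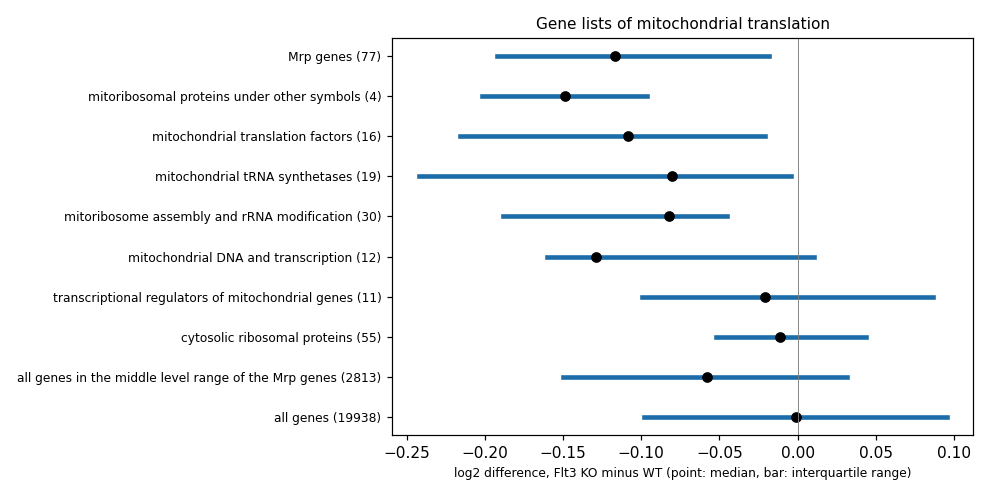
The x axis gives the log2 difference, Flt3 KO minus WT; points are medians, bars interquartile ranges and numbers in brackets the genes measured in each list. The members' median of −0.12 lies below that of all genes in the middle signal range (−0.058), and the cytosolic ribosomal proteins lie at −0.011, a sign that turned under quantile normalization.

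The arrays as a whole were checked through Flt3 and cell markers. The Flt3 probe set read 10.71 and 10.77 in WT against 8.46 and 8.61 in Flt3 KO (log2 intensity), and it fell by 2.21 (SE 0.066, limma adjusted p = 7.4e-05); without WT replicate 1 or 2 the adjusted p was 0.063 or 0.074. Of 12 measured pDC markers, 6 fell and 0 rose past the threshold, where 1.31% of all genes were lower and 1.08% higher. All 12 were lower in mean, and their median difference was −0.24. Cox6a2, a muscle-type respiratory subunit also made by pDCs, fell by 0.76 (SE 0.075, limma adjusted p = 0.0069), the RNA sensor gene Tlr7 by 0.49 and the chemokine receptor gene Ccr9 by 0.43. Siglech, Bst2 and Tcf4, which did not pass, differed by −0.13, −0.074 and −0.043, and their Flt3 KO means of 12.52, 12.85 and 12.21 (log2 intensity) were bright. The part of these marker differences in the values of the mitochondrial ribosomal protein genes was not tested. Of 19 measured markers of monocytes and macrophages, 6 rose and 0 fell past the threshold, against 1.08% and 1.31% of all genes. Among the 6 were Ccr2 (0.70), Fn1 (0.88) and Cx3cr1 (1.03). In mean 16 were higher and 3 lower. Both Flt3 KO values lay above both WT values in 11 of the 19 (57.9%), against 21.9% of all genes. They lay below in 2 (10.5%), Cd68 (−0.11) and Ly86 (−0.072), against 25.3% of all genes. The summed intensity of the 19 markers was 6993 to 7339 in WT. In Flt3 KO it was 7989 (replicate 1) and 9583 (replicate 2), and none was listed at 0. Flt3 KO replicate 2, the array with more of this signal, read higher than Flt3 KO replicate 1 for 60 of the 77 members. It also read higher for 1798 of the 2813 genes in the middle signal range. The relation of the marker signal to the members' values was not tested. Without Flt3 KO replicate 2 the members' median was −0.13, and without Flt3 KO replicate 1 it was −0.10. Among markers of conventional dendritic cells 1 of 11 passed, Dpp4, which rose by 0.29, where 1.08% of all genes were higher. In mean 7 of the 11 were higher and 4 lower. Both Flt3 KO values lay above both WT values in 7 of the 11 (63.6%), against 21.9% of all genes. Among these were Zbtb46 (0.48), Cd24a (0.48), Cd209a (0.24) and Itgax (0.22). They lay below in 3 (27.3%), Clec10a (−0.12), Clec9a (−0.10) and Xcr1 (−0.13), against 25.3% of all genes. By the unadjusted rule 5 of the 11 (45.5%) were higher and 0 lower, against 6.95% and 10.1% of all genes. Of 38 markers of B cells, T cells, NK cells, neutrophils and erythroid cells 0 passed in limma. By the unadjusted rule 6 of the 38 (15.8%) were higher and 5 (13.2%) lower, against 6.95% and 10.1% of all genes. The lowest p-values of these lists were those of Cr2 (0.35) and Cd79b (−0.25) for B cells, Cd5 (−0.36) and Cd3e (0.29) for T cells, Nkg7 (0.29) and Tbx21 (0.27) for NK cells, S100a8 (−0.34) and Cxcr2 (0.38) for neutrophils, and Epb42 (−0.27) and Slc4a1 (−0.25) for erythroid cells, each given as a log2 difference.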

How the data were processed

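The authors deposited linear, already processed intensity values for 30177 probe sets and 4 arrays; how background, summarisation and scaling were handled is not given in the sources used. Per the labels, RNA was amplified and biotin-labelled for whole-transcript arrays. Names came from the platform annotation: 21789 probe sets had 1 symbol, 1621 several and 6767 none. The brightest probe set stood for each of 19938 genes. Intensities were converted to log2 without a constant or filter, and the genotype difference was fitted by limma (version 3.58.1, R 4.3.3) through lmFit and eBayes, with trend and no covariate, and Benjamini-Hochberg adjustment over all genes. The fit was tested on simulated data. SE is limma's moderated standard error. Median intensity was 55.1 to 57.2 per array; the number of arrays limits the precision.

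Members and lists were chosen with earlier results of these data known. Named were members past the threshold, the 6 most positive and 6 most negative, the 3 brightest and 3 dimmest, those with 2 probe sets, a fixed set by role, and from other lists up to 3 past the threshold or the 2 with the lowest p. Genes outside this rule were named after their values were seen. Alternatives changed scaling, filter, variance model, probe sets, block and arrays.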

Additional observations from a re-analysis of the deposited data

How the results depend on the processing

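The count of mitochondrial ribosomal protein genes past the threshold was 0 in both directions in every alternative run. Their median difference of −0.12 kept its sign throughout, at −0.15 with arrays centred on their medians (all genes −0.037), −0.076 under quantile normalization and −0.066 under cyclic loess, which was chosen after seeing the data; without 1 array it ranged from −0.13 to −0.10. The 22 members with an unadjusted p under 0.05 kept their sign in all alternatives, as did 54 of the 77; the former were chosen for differences that are large against their error. The number lower by that rule was 12 under cyclic loess (with 1 higher), 14 under quantile normalization and 32 with arrays centred, and 4 to 19 without 1 array. Of all genes 476 passed, 724 of 9969 without dim genes, 108 without the intensity trend, 219 with all probe sets tested and 0 to 54 without 1 array, where the limma fit has 1 residual degree of freedom. Signs turned for Mrpl12 with arrays centred (−0.034) and for Mrps36 with probe sets averaged (0.033). Without 1 array the ranges were −0.026 to 0.031 for Mrpl12, −0.038 to 0.18 for Mrpl44, −0.19 to 0.035 for Mrps18b, −0.10 to 0.074 for Mrps36 and −3.6e-05 to 0.12 for Mrpl35. The cause of these moves was not tested. Same-numbered replicates did not deviate together (r = −0.017), so the labels' numbers are not taken as pairing; with the replicate block 375 genes passed, 0 of them members, and the members' median was −0.12.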
